A study of Mus musculus with 4 samples.

Results

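The 9 genes that write, read or erase DNA methylation were examined in mouse P19 cells, an embryonal carcinoma line that turns towards neural fates when aggregated with retinoic acid. They were Dnmt1, Dnmt3a, Dnmt3b, Dnmt3l, Uhrf1, Tet1, Mbd1, Mbd2 and Mbd3, and every probe set (a group of short probes read as 1 value) that the array annotation gives to a single one of these symbols was kept. That gave 22 probe sets for 9 genes, of 22626 probe sets other than controls. Control arrays held RNA of unmodified P19 cells, and LIN28A arrays held RNA of P19 cells that express human LIN28A, an RNA-binding protein of early embryonic cells, all the time. Both lines had been aggregated for 4 days in serum-containing medium with 5e-07 M all-trans retinoic acid, and each line had 2 arrays, numbered 1 and 2 in the labels. The transgene's promoter, and whether the LIN28A line is 1 clone or a pool, are not given in the sources used here. Because the labels name the arrays repeats without stating separate cultures, every p-value covers array-to-array spread alone, which could be technical.

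DNA methylation in mammals sits mostly on the cytosine of CpG dinucleotides. Dnmt3a and Dnmt3b place new methyl groups, Dnmt3l stimulates them without being an active enzyme itself, and Dnmt1 copies the pattern onto the new strand after replication, where Uhrf1 recruits it to half-methylated sites. Tet1 oxidises 5-methylcytosine, a first step of its removal, and the Mbd proteins bind methylated DNA or, for Mbd3, take part in the NuRD chromatin remodelling complex. Pluripotent and early embryonic cells are known for high levels of the de novo enzymes, and dividing cells for high levels of Dnmt1 and Uhrf1. The arrays measured RNA, not DNA methylation or protein.

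Of the 22 probe sets, 17 of 8 genes passed the filter on low values (a mean over the 4 arrays under the 30th percentile was left out), as did 15838 probe sets in all. The other 5 lay under an intensity of 16 on every array. They were the Dnmt3l probe set, 3 of the 5 Mbd1 probe sets and 1 of the 2 Tet1 probe sets. Differences are on the scale log2(intensity + 16), LIN28A minus control, which understates the change of low values. Over all tested probe sets the median difference was -0.05, or 0.08 when each array was centred on its median.

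Dnmt1, Dnmt3a and Uhrf1 lay higher in LIN28A cells in both numbers at every probe set, Dnmt3b did so at its brighter probe set, Mbd1 lay lower at both tested probe sets, and Mbd2, Mbd3 and Tet1 had opposite signs in the 2 numbers. None of these differences passed the threshold, so all of them are values and not calls. limma at an adjusted threshold of 0.05 called 0 of 15838 probe sets in either direction (0% each way), and its adjusted p was 1.0 at each of the 17 probe sets of these genes. At an unadjusted p under 0.05 it listed 1 of the 17 as higher (Dnmt3a, against 0.442% of all tested probe sets) and 1 as lower (Mbd1, against 1.21%).

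The LIN28A arrays both lay above the control arrays at 7 of the 17 probe sets, against 10.0% of all tested probe sets, and below them at 2, against 15.5%. The difference was above 0 in both numbers at 10 of 17 (24.2% of all) and below 0 in both at 2 (33.3% of all). A difference of at least 0.5 in the same direction in both numbers was seen at 4 probe sets on the higher side (1.38% of all), which were Dnmt3a 1423065_at and 1423066_at, Dnmt3b 1449052_a_at and Uhrf1 1415811_at, and at 1 on the lower side (2.65% of all), Mbd1 1437061_at. Several of these probe sets measure 1 gene and are not independent. Scaling moved the background: after median centring 18.1% of all probe sets had both LIN28A arrays above both controls and 8.42% below, and 11 and 2 of the 17 did.

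**Figure D1:**
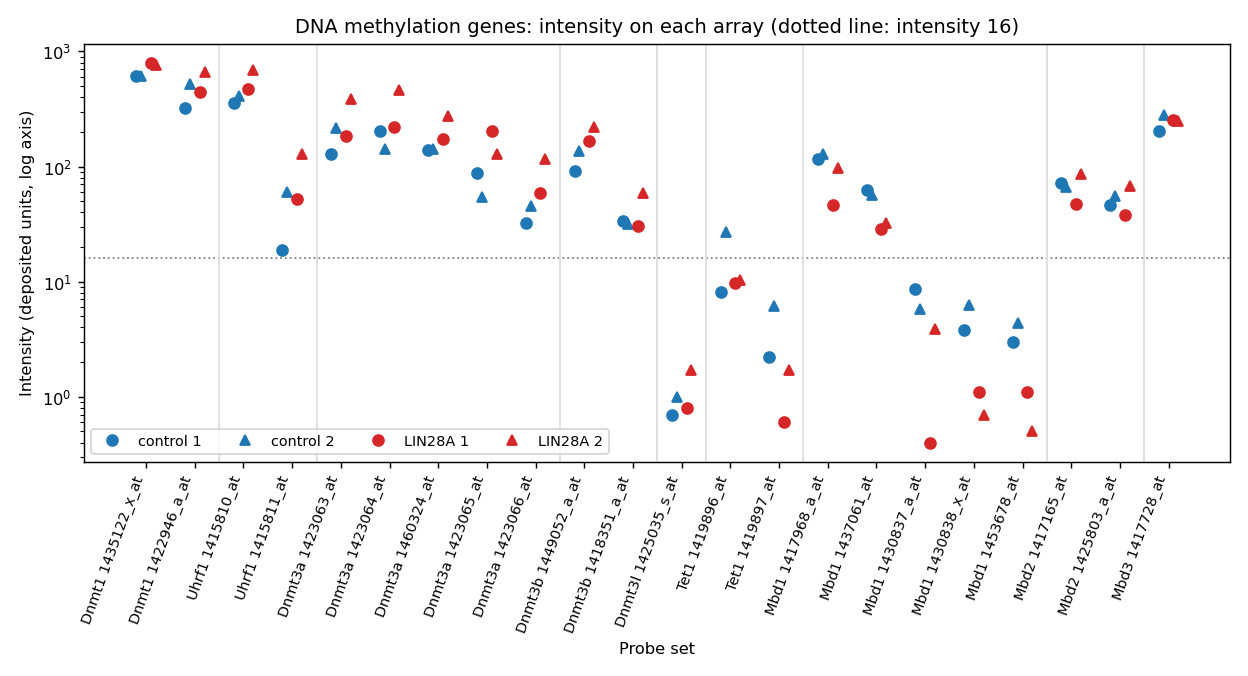
Intensity of each of the 22 probe sets on each array, in deposited units on a log axis, with control arrays in blue, LIN28A arrays in red, number 1 as circles and number 2 as triangles. Among the 17 tested probe sets, both red points lie above both blue points at 7 of Dnmt1, Uhrf1, Dnmt3a and Dnmt3b (10.0% of all tested probe sets). They lie below both at 2, of Mbd1 (15.5% of all tested). The 3 dim probe sets of Mbd1 and the dimmer one of Tet1 read under 16 on every array. They were not tested, and no direction is read from their points. Dnmt3l stays between 0.7 and 1.7.

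Dnmt1, the maintenance methyltransferase, was read by 2 probe sets. Probe set 1435122_x_at read 616.5 and 611.9 on control arrays 1 and 2, then 794.2 and 763.9 on LIN28A arrays 1 and 2. The control arrays were nearly equal there, and the groups did not overlap. Its log2 difference was 0.33 ± 0.27 (limma SE, n = 2 a group), with 0.36 in number 1 and 0.31 in number 2. The suffix _x_at marks probe sets whose probes may also bind other transcripts. Probe set 1422946_a_at read 325.3 and 519.1 on the control arrays, then 447.3 and 659.8 on the LIN28A arrays. Here the groups overlapped, since control 2 lay above LIN28A 1, although the difference within each number was much like that of the first probe set, 0.44 and 0.34. It averaged 0.39 ± 0.37 (SE). Leaving out control 1 or LIN28A 2 gave 0.06 and 0.12, and leaving out control 2 or LIN28A 1 gave 0.71 and 0.66.

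Uhrf1, which brings Dnmt1 to half-methylated CpG, was read by 2 probe sets drawn from the same transcript record. Probe set 1415810_at read 357.6 and 406.9 on the control arrays, then 472.0 and 686.8 on the LIN28A arrays. The groups did not overlap, and LIN28A 2 was the highest array. The difference was 0.56 ± 0.32 (SE), from 0.39 within number 1 and 0.73 within number 2. Without LIN28A replicate 2 it was 0.30. Probe set 1415811_at read 18.7 and 59.6 on the control arrays, then 52.0 and 129.4 on the LIN28A arrays, with differences of 0.97 and 0.94 within the numbers. Control 2 lay above LIN28A 1, so the groups overlapped there. The mean difference was 0.96 ± 0.53 (SE), between 0.40 (without control replicate 1) and 1.52 (without control replicate 2), and it was 0.41 without LIN28A replicate 2 and 1.51 without LIN28A replicate 1.

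Dnmt3a, the de novo methyltransferase that persists in differentiating cells, was read by 5 probe sets from 1 transcript record, and each had a difference above 0 in both numbers. Probe set 1423065_at read 87.2 and 54.3 on the control arrays, then 205.2 and 128.7 on the LIN28A arrays. That is 2.35 times the control value in number 1 and 2.37 times in number 2, with no overlap of the groups. Its log2 difference of 1.07 ± 0.37 (SE; limma unadjusted p = 0.027, adjusted p = 1.0) was the largest of the 17 probe sets, and leaving out 1 array moved it between 0.76 and 1.38.

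The other Dnmt3a probe sets differed more in number 2 than in number 1. Probe set 1423066_at read 32.5 and 45.1 on the control arrays, then 59.1 and 116.4 on the LIN28A arrays, a difference of 0.87 ± 0.38 (SE), with 0.63 in number 1 and 1.12 in number 2. Probe set 1423064_at read 202.5 and 141.0 against 219.6 and 459.9, and its difference of 0.85 ± 0.43 (SE) came from 0.11 within number 1 and 1.60 within number 2. LIN28A 2 stood far above the other 3 arrays at that probe set, and the difference was 0.35 without it. Probe set 1460324_at read 139.6 and 141.4 against 172.8 and 274.5, with 0.28 and 0.88 within the numbers. The groups did not overlap at these 3. Probe set 1423063_at read 129.2 and 214.5 against 183.0 and 387.5, with 0.45 and 0.81 within the numbers, and its groups overlapped. Leaving out 1 array moved the difference between 0.46 and 1.28 at 1423066_at, 0.35 and 1.36 at 1423064_at, 0.27 and 0.89 at 1460324_at, and 0.12 and 1.14 at 1423063_at. The lowest of each came without LIN28A replicate 2 and the highest without LIN28A replicate 1.

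Dnmt3b, the de novo enzyme most tied to pluripotent and early embryonic cells, was read by 2 probe sets from the same transcript record. Probe set 1449052_a_at read 90.6 and 136.2 on the control arrays, then 165.5 and 221.0 on the LIN28A arrays, with no overlap. LIN28A was 1.83 times control in number 1 and 1.62 times in number 2 (log2 differences 0.77 and 0.64). The dimmer probe set 1418351_a_at read 33.6 and 31.6 on the control arrays, then 30.7 and 59.0 on the LIN28A arrays. Only LIN28A 2 stood apart there. Its difference within number 1 was -0.09, against 0.66 within number 2, and -0.06 without LIN28A replicate 2, so this probe set does not share the first one's pattern in number 1. Dnmt3l, the catalytically inactive partner of the de novo enzymes, read 0.7 and 1.0 on the control arrays, then 0.8 and 1.7 on the LIN28A arrays, which is near the lowest values of the arrays, and it was not tested.

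**Figure D2:**
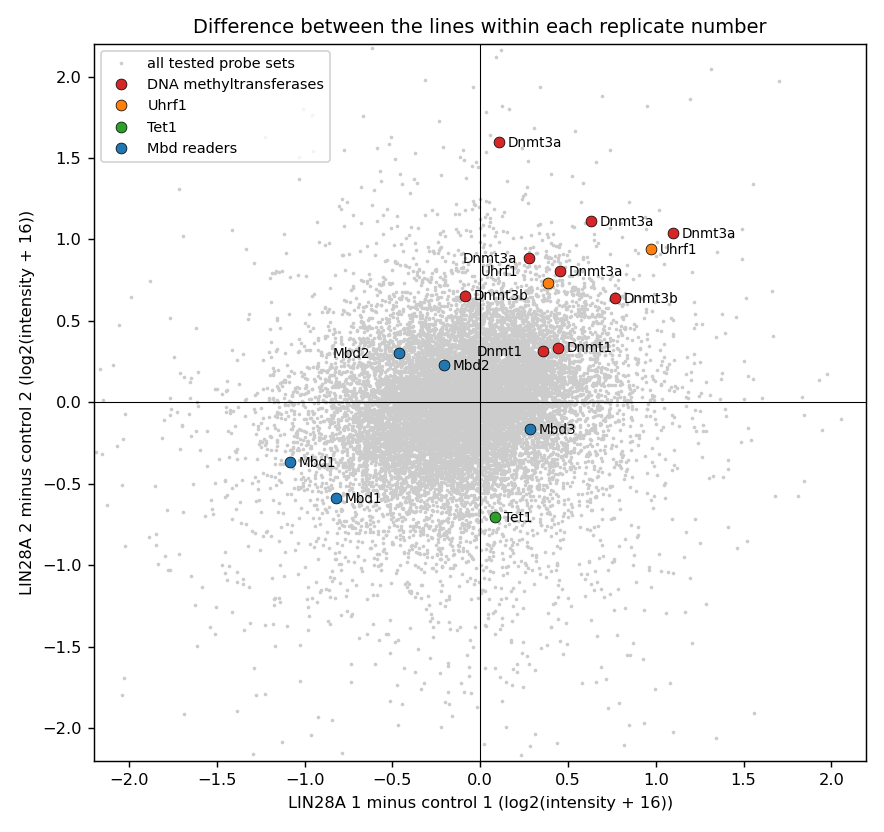
Difference of LIN28A and control within number 1 (horizontal axis) and within number 2 (vertical axis), both as log2(intensity + 16), for all 15838 tested probe sets in grey and the 17 of the DNA methylation genes in colour; 52 grey points lie outside the axes. Of the 11 methyltransferase and Uhrf1 points, 10 lie above 0 on both axes, and both Mbd1 points lie below 0 on both.

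The windows around the annotated starts of these genes differ in how many CpG they hold, the site their own products act on. RefSeq windows on GRCm38.p6, from 250 bases before to 50 after a start, were found for 7 of the 9 genes (14 windows). The sequences below are shown, 5′ to 3′ on the gene's strand with each CpG in capitals, because Dnmt1, Uhrf1 and Dnmt3b lay higher in LIN28A cells on their brighter probe sets and Dnmt3l read near 0.
Dnmt1, chr9:20952574-20952873, minus strand: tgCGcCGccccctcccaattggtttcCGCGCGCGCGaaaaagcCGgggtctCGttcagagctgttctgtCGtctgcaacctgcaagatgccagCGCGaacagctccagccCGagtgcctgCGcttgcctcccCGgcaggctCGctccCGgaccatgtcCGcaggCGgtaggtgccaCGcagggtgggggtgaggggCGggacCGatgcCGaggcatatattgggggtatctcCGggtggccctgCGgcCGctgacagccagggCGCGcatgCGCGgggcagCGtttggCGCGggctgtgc
Uhrf1, chr17:56304063-56304362, plus strand: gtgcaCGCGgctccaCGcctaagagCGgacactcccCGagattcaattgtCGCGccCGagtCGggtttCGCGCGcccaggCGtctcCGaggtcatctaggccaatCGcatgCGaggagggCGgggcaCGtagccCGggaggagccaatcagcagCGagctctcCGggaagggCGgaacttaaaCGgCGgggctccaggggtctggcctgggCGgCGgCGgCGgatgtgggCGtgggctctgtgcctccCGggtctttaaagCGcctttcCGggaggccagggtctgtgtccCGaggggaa
Dnmt3b, chr2:153649199-153649498, plus strand: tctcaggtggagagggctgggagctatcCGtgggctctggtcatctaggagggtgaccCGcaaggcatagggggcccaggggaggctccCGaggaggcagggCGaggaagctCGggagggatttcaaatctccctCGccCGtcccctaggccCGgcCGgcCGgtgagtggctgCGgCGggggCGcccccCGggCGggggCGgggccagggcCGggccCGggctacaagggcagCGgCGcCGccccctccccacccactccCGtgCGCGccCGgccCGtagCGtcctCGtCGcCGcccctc
Dnmt3l, chr10:78042037-78042336, plus strand: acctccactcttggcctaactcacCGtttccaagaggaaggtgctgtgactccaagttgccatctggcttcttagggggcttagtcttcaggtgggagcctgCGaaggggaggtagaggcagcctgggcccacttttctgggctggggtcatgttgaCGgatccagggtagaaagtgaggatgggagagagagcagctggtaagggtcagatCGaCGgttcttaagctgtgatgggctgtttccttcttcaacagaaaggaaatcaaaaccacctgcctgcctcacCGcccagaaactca

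For each gene the window with the most CpG is shown. These hold 33, 33, 30 and 6 CpG, against a median of 7 over all 32851 windows. The 3 Dnmt3l windows hold 3, 4 and 6 CpG and the 3 Dnmt3a windows hold 46, 47 and 18, while the 3 Dnmt1 windows span 2 to 33 and the second Uhrf1 window holds 12. CpG content thus varies between starts of 1 gene as well as between genes, and which start these cells use, or whether its CpG are methylated, was not measured. E2F-type motifs, which many replication genes carry, were searched on both strands as TTTCCCGC, TTTGGCGC and TTTGCCGC. One of the 14 windows held one, TTTGGCGC in the Dnmt1 window shown, starting at base 284 of 300. Of all windows, 1.99% held at least 1 of the 3 motifs. Counted by gene, any window held one for 1 of the 7 genes here, 8 of 18 S-phase genes and 2.29% of all genes. The match is a description of the letters and says nothing of binding.

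Tet1, the dioxygenase of pluripotent cells, was dim. Probe set 1419896_at read 8.2 and 26.8 on the control arrays, then 9.7 and 10.3 on the LIN28A arrays, so control 2 alone stood above 16. The lines differed by 0.09 within number 1 and by -0.70 within number 2 (mean -0.31 ± 0.36 SE), and 0.10 without control replicate 2. Probe set 1419897_at read 2.2 and 6.2 against 0.6 and 1.7 and was not tested. No direction can be read for Tet1.

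Mbd1, a methyl-CpG reader that recruits repressive complexes, was the gene of the set that lay lower in LIN28A cells. Probe set 1437061_at read 62.6 and 56.7 on the control arrays, then 28.4 and 32.3 on the LIN28A arrays. Each LIN28A array lay well under both controls, and arrays of 1 line were close to each other. The difference was -0.71 ± 0.28 (SE; limma unadjusted p = 0.045, adjusted p = 1.0), with -0.82 in number 1 and -0.59 in number 2. Leaving out 1 array kept it between -0.77 and -0.65, and median centring gave -0.58.

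The brighter Mbd1 probe set, 1417968_a_at, read 115.4 and 129.1 on the control arrays, then 45.9 and 96.6 on the LIN28A arrays. The groups did not overlap here either, but LIN28A 1 stood far below the other 3 arrays. The difference was -1.09 in number 1 and -0.37 in number 2 (mean -0.73 ± 0.37 SE). It was -0.29 without LIN28A replicate 1 and -1.16 without LIN28A replicate 2. At the 3 dim probe sets the control arrays read 3.0 to 8.6 and the LIN28A arrays 0.4 to 3.9. Values so far under 16 were not compared.

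Mbd2, a methyl-CpG reader of the NuRD complex, overlapped between the lines at both probe sets. Probe set 1417165_at read 71.5 and 66.9 on the control arrays, then 47.6 and 86.1 on the LIN28A arrays, which is -0.46 within number 1 and 0.30 within number 2. Its mean of -0.08 ± 0.34 (SE) was 0.05 under median centring and 0.26 without LIN28A replicate 1. Probe set 1425803_a_at read 46.5 and 55.4 against 38.2 and 67.7, or -0.21 and 0.23, with a mean of 0.01 ± 0.33 (SE). It was -0.30 without LIN28A replicate 2 and -0.08 without control replicate 1. At both, LIN28A 1 was the lowest array and LIN28A 2 the highest.

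Mbd3, the NuRD subunit, read 204.6 and 278.3 on the control arrays, then 252.8 and 246.5 on the LIN28A arrays at its single probe set. The LIN28A arrays lay between the control arrays. The lines differed by 0.29 within number 1 and by -0.16 within number 2, with a mean of 0.06 ± 0.30 (SE), and -0.15 without control replicate 1. With these standard errors, Mbd2 and Mbd3 are not shown to be alike in the lines either.

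The arrays also differed between the 2 numbers. At 4 of the 17 probe sets the difference between the lines was larger in both numbers than the difference between numbers was in either line. They were Dnmt1 1435122_x_at, Dnmt3a 1423065_at, Dnmt3b 1449052_a_at and Mbd1 1437061_at. At 2 the reverse held (Dnmt1 1422946_a_at and Uhrf1 1415811_at), where number 2 lay above number 1 by 0.65 and 1.12 in control and by 0.54 and 1.10 in LIN28A cells. LIN28A 2 lay above LIN28A 1 at 14 of the 17, and control 2 above control 1 at 11. For none of these counts (4, 2, 14 and 11) was the share of all tested probe sets computed, so they only describe the 17. The median of number 2 minus number 1 over the 17 was 0.18 in control and 0.62 in LIN28A cells. Over all tested probe sets it was 0.02 and 0.12.

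Within number 1 the probe sets of these genes had a median difference of 0.29, with 4 at least 0.5 higher (7.61% of all tested) and 2 at least 0.5 lower (16.1%). Within number 2 the median was 0.64, with 9 at least 0.5 higher (8.06%) and 2 at least 0.5 lower (10.1%). Over all tested probe sets the medians were -0.09 and -0.0024. Scaling moved these values. Under median centring the medians in numbers 1 and 2 were 0.49 and 0.69 for the 17, and 0.12 and 0.05 for all tested probe sets. The median intensity was 35.8 and 38.6 on the control arrays, then 29 and 36.7 on the LIN28A arrays. Without centring, the median over the 17 was 0.39 for both numbers together. Dnmt3a supplies 5 of the 17. With each of the 8 genes read by its brightest probe set the median was 0.20 (0.20 in number 1 and 0.31 in number 2), and 4 of 8 lay above 0 in both numbers and 1 below. For the 17 probe sets, leaving out LIN28A 2 gave 0.12, leaving out LIN28A 1 gave 0.66 and leaving out control 2 gave 0.59. The median was 0.17 over all 22 probe sets, with no filter.

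**Figure D3:**
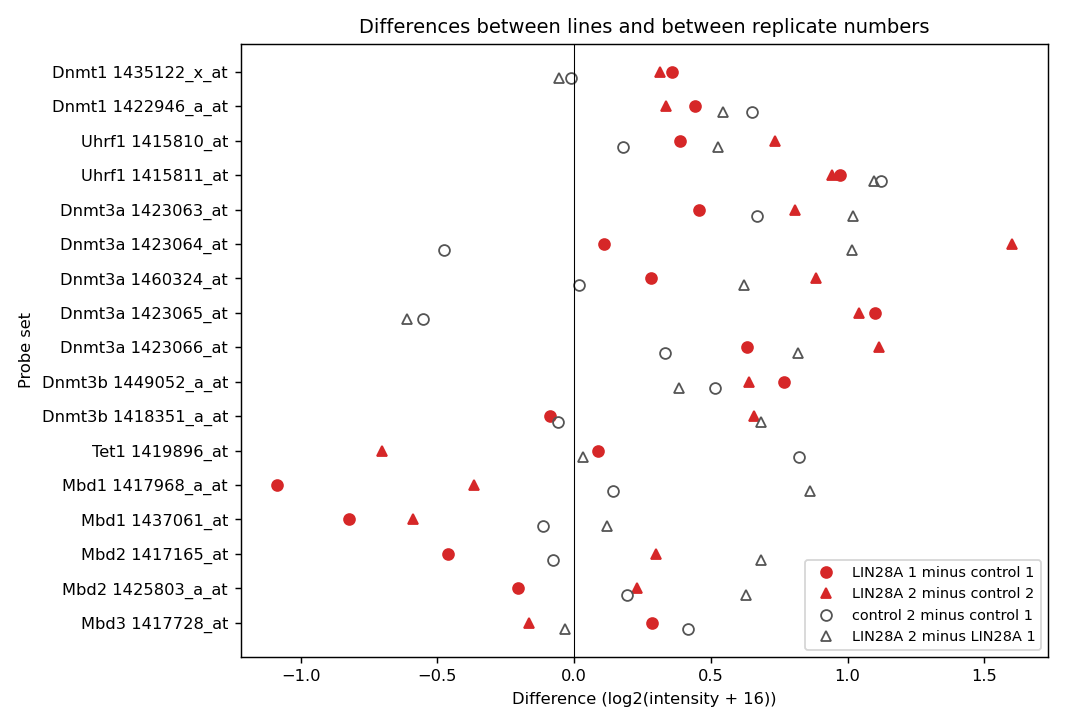
Differences in log2(intensity + 16) at the 17 tested probe sets, with LIN28A minus control in red (circles number 1, triangles number 2) and number 2 minus number 1 as open grey symbols (circles control, triangles LIN28A). Red symbols lie farther from 0 than both grey ones, in both numbers, at 4 probe sets. The share of all tested probe sets doing so was not computed.

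The arrays themselves also differed by number. The 18S ribosomal RNA probe set read 677 and 136 on control 1 and LIN28A 1 against 9.2 and 11.3 on control 2 and LIN28A 2, and beta-actin's 3′ signal over its 5′ signal ran from 2.76 to 4.71, highest on control 1. The part of RNA quality in the differences above was not tested. Sox2, listed here with the neural progenitor markers, read 1902.3 and 1697.3 on the control arrays, then 1557.0 and 1294.6 on the LIN28A arrays. That is lower without overlap, as at 16.6% of all tested genes. Each of 9 neural progenitor and 10 neuronal marker genes reached 16 on at least 1 array. Sox1 did not on control 1 (11.6) and LIN28A 1 (12.5), nor Map2 on LIN28A 1 (8.6). Pou5f1, the Oct4 gene of undifferentiated cells, read 30.3 and 374.2 on the control arrays, then 28.7 and 775.2 on the LIN28A arrays, so number 2 held far more of it in both lines. Zfp42, Dppa4 and Tdgf1 of the 9 pluripotency markers lay under 16 on every array, as did Afp, Col1a1, Gata4, Mixl1 and Sox17 of 9 endoderm and mesoderm markers.

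Genes of S phase lay higher in LIN28A cells beside the methyltransferases, and neuronal genes lay lower, with 0 of either called at the adjusted threshold by limma (at an unadjusted p under 0.05, Mki67 was higher and Mapt lower). Of 21 S-phase genes, 12 had their 2 LIN28A arrays above both control arrays and 0 below (11.5% and 16.6% of all 8930 tested genes), 19 lay above 0 in both numbers (25.7% of all), and the median was 0.44 (0.45 and 0.40 in numbers 1 and 2). Their summed intensity was 18456.4 and 13803.6 on the control arrays, then 22531.0 and 18037.1 on the LIN28A arrays. Mki67, the proliferation antigen gene, read 780.7 and 579.9 against 1139.9 and 1239.1. The DNA polymerase gene Pola1 and the nucleotide reductase genes Rrm1 and Rrm2 differed by 0.62, 0.69 and 0.65. At other probe sets Rrm1 differed by 0.33, with overlap of the groups, and Rrm2 by 0.83 and 0.71. Beside that S-phase median, the mean differences were 0.33 and 0.39 at the Dnmt1 probe sets and 0.56 and 0.96 at those of Uhrf1. They were 0.58 to 1.07 at those of Dnmt3a and 0.70 and 0.28 at those of Dnmt3b.

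Of 10 neuronal markers, 8 lay below 0 in both numbers (32.6% of all tested genes) and 3 had both LIN28A arrays below both control arrays (16.6% of all), with a median of -0.80. Their summed intensity was 3830.3 and 6175.1 on the control arrays, then 1933.0 and 4399.3 on the LIN28A arrays. In bulk RNA, fewer cells of a type and less RNA per cell cannot be told apart. Of 9 neural progenitor markers, 1 lay above 0 in both numbers and 2 below. The 1 was Hes5, a Notch target, which read 185.6 and 194.3 on the control arrays, then 924.2 and 337.2 on the LIN28A arrays. Its other probe set differed by 1.17 and 0.17 in numbers 1 and 2. Sox2 was among the 2 below, with -0.29 and -0.39. The median of the 9 was 0.11 in number 1 and -0.53 in number 2. In number 1, 4 were at least 0.5 higher and 0 lower (608 and 1424 of all 8930 tested genes). In number 2, 1 was at least 0.5 higher and 5 lower (783 and 758 of all). Of 6 tested pluripotency markers, 2 lay above 0 in both numbers and 1 below (Fgf4). The groups did not overlap at any of these, as at 11.5% (higher) and 16.6% (lower) of all tested genes. Fgf4 read 30.9 and 14.1 on the control arrays, then 12.8 on both LIN28A arrays. Sall4, a transcription factor gene of undifferentiated cells, read 16.4 and 2.1 on the control arrays, then 194.2 and 83.1 on the LIN28A arrays, a difference of 2.58 ± 0.49 (SE; limma unadjusted p = 0.0020, adjusted p = 1.0) with 2.70 and 2.45 in the numbers. Its dimmer probe set read 8.2 and 0.5 against 19.3 and 10.7, a difference of 0.62. Utf1, another gene of undifferentiated cells, read 5.5 and 3.8 against 16.4 and 16.5. The part of cycling, neuronal and undifferentiated cells in the differences of the methylation genes was not tested. For pluripotency markers the summed intensity was 215.0 and 419.2 on the control arrays, then 278.8 and 948.4 on the LIN28A arrays. Pou5f1 made up 374.2 and 775.2 of it on control 2 and LIN28A 2, and Sall4 194.2 on LIN28A 1. Of the 6 tested, 2 were at least 0.5 higher and 3 lower in number 1 (median -0.38). In number 2, 4 were at least 0.5 higher and 0 lower (median 0.87). The counts over all tested genes are given above. For endoderm and mesoderm markers the sum was 169.4 and 87.5 on the control arrays, then 195.0 and 161.0 on the LIN28A arrays. Acta2 made up 74.7 and 40.9 of it on the control arrays, then 142.5 and 98.9 on the LIN28A arrays. Sox7 lay lower, with 23.2 and 9.0 against 5.9 and 3.0. Of the 4 tested, 2 lay above 0 in both numbers and 1 below (25.7% and 32.6% of all tested genes).

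Partners of the methylation enzymes were read from lists of known genes, each gene by its brightest tested probe set. limma called 0 of them in either direction at the adjusted threshold, and at an unadjusted p under 0.05 it listed Mta3 as higher and Neil3 as lower. Over all 8930 tested genes, 2297 (25.7%) lay above 0 in both numbers and 2914 (32.6%) below, with a median of -0.04. Of 7 partners of maintenance methylation, 5 lay above 0 in both numbers and 0 below, with a median of 0.20. Hells, a remodeller needed for normal methylation of repeats, read 707.6 and 555.1 on the control arrays, then 891.2 and 685.9 on the LIN28A arrays (0.33 and 0.30 in numbers 1 and 2). Its partner gene Cdca7 differed by 0.57 and 0.25, Pcna, the sliding clamp of replication, by 0.13 and 0.55, and the ubiquitin protease gene Usp7 by 0.17 and 0.24 (-0.18 and -0.07 at its dimmer probe set).

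Of 11 NuRD genes, 9 lay above 0 in both numbers and 0 below in both, with a median of 0.25 (0.33 and 0.23 in numbers 1 and 2). Mta3 read 72.3 and 71.5 on the control arrays, then 118.7 and 146.7 on the LIN28A arrays, although its other probe set differed by 0.04. The histone-binding subunit gene Rbbp7 differed by 0.43 and by 0.46 at its other probe set, and Mta1 by 0.30. Gatad2a, whose product links parts of the complex, differed by 0.34 at its brightest probe set and by 0.35, -0.13 and -0.35 at its others. Mbd2 and Mbd3, which belong to alternative forms of this complex, had differences of -0.08 and 0.06 at their brightest probe sets.

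Of 7 other CpG-binding genes, 3 lay above 0 in both numbers and 2 below. Mbd4, a glycosylase with a methyl-CpG binding domain, read 9.0 and 20.1 on the control arrays, then 57.3 and 23.9 on the LIN28A arrays, so LIN28A 1 stood apart. Zbtb33, the Kaiso gene, read 2.6 to 14.7. Kmt2a and Kdm2b, whose products bind unmethylated CpG, differed by 0.28 and 0.31. Tet2 and Tet3 were not analysed here, and Tdg is not reported because its probe sets carry several symbols.

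Of 11 further eraser and base excision repair genes, 0 lay above 0 in both numbers and 5 below, with a median of -0.08. Neil3, a DNA glycosylase, read 44.4 and 35.6 on the control arrays, then 11.0 and 20.3 on the LIN28A arrays, a difference of -0.83 ± 0.31 (SE; limma unadjusted p = 0.036). Gadd45g, a stress and differentiation gene tied to demethylation, read 558.9 and 603.9 against 367.6 and 526.2. Gadd45b had -0.71 within number 1 against 0.37 within number 2, and Apobec1 read 15 or less on every array.

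The 17 genes that act with the de novo enzymes had a median of 0.05, with 6 above 0 and 3 below 0 in both numbers. Ezh2, the H3K27 methyltransferase gene, read 825.8 and 688.3 on the control arrays, then 1356.1 and 957.4 on the LIN28A arrays (0.70 and 0.47). Cbx5, the HP1 alpha gene, differed by 0.51 at its brightest probe set and by 0.15, 0.38 and 0.10 at the others. Zfp57 and Trim28, which keep methylation at imprinted regions, differed by -0.40 and 0.21, and Nsd1, an H3K36 methyltransferase gene, by -0.43 with values of 16.6 or less.

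In the methyl donor cycle 2 of 10 genes lay above 0 in both numbers and 3 below, with a median of -0.09. Shmt1, a serine hydroxymethyltransferase gene, read 306.1 and 302.2 on the control arrays, then 234.9 and 198.7 on the LIN28A arrays, and its other probe sets differed by -0.72, -0.57 and -0.63. Mthfd1 differed by 0.40, and by 0.31 and -0.13 at its others, Gamt by 0.34 and the dim Bhmt by -0.69. Of 13 germline genes whose promoters are methylated in somatic cells, all read under 16 on every array, with a sum of 96.9 and 28.0 on the control arrays, then 43.5 and 43.0 on the LIN28A arrays. Only Asz1 of these passed the filter.

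**Figure D4:**
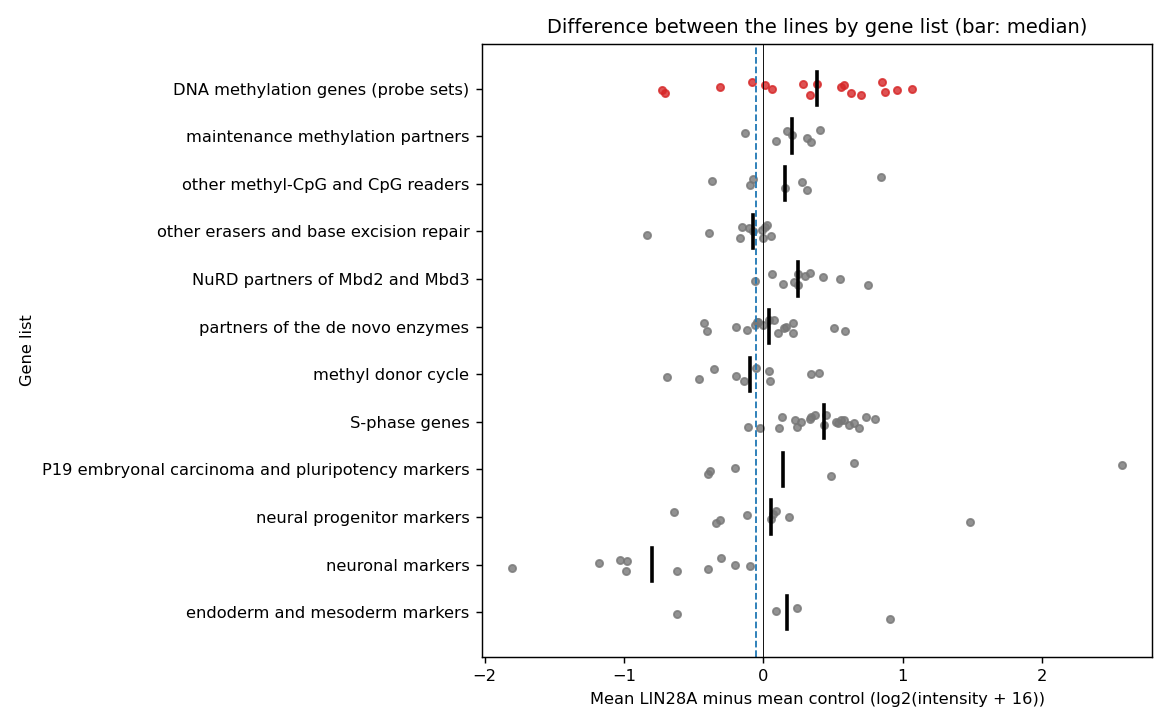
Mean LIN28A minus mean control in log2(intensity + 16) for the 17 tested probe sets of the DNA methylation genes in red and for each gene of the companion and marker lists in grey, with the median of each as a black bar. The blue dashed line is the median over all tested probe sets, -0.05. The S-phase bar stands at 0.44 and the neuronal bar at -0.80.

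The genes with the array pattern nearest to 3 of the members were found by the Euclidean distance of their centred log2 values over 4 arrays. With 4 arrays and 15838 probe sets close patterns arise easily, so the names only describe the data. For Dnmt1 1435122_x_at they were Aldh2 (distance 0.016), Cenpq (0.030) and Sowahc (0.044). For Uhrf1 1415810_at they were Myb (0.028), Abhd8 (0.032) and G3bp2 (0.074). For Dnmt3b 1449052_a_at they were Arhgef40 (0.044), Ide (0.091) and Smc6 (0.106).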

How the data were processed

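The authors deposited 1 table of linear intensity values for 22690 probe sets on 4 arrays. Per the labels' protocols, total RNA was made into biotin-labelled cRNA from oligo(dT)-primed cDNA and hybridised to 1-colour Affymetrix arrays. The summarising software, the scaling and detection calls are not given in the sources used here. Trimmed means were 150.0 on every array, so the values were taken as scaled by the authors. Of the probe sets other than 64 controls, 20380 carry 1 gene symbol, 691 several and 1555 none.

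Values became log2(intensity + 16). Probe sets whose mean was under the 30th percentile (about 8.04) were left out. The lines were compared over all 15838 remaining probe sets by limma 3.58.1 in R 4.3.3 (lmFit, eBayes, no block) with Benjamini-Hochberg adjustment at 0.05. The fit was also run on simulated data, where the planted changes were larger than any difference of the methylation genes. Recovery of changes as small as theirs was not checked. Differences within each number have 1 array a group and no test. With 2 arrays against 2, their number limits the precision of every value.

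The members and lists were chosen with earlier results of these data known. Each member probe set is reported. From each companion list up to 4 genes with the smallest unadjusted p are named, plus Pcna, Hells, Tdg, Tet2, Tet3, Trim28, Mki67, Pou5f1 and Sox2, with the 3 genes nearest in pattern to Dnmt1, Dnmt3b and Uhrf1. One further gene of that rule is not reported here. Marker lists are given mainly as counts or sums. Alternatives were other scalings, pseudocounts and filters, eBayes trend, the replicate block and leaving out each array.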

Additional observations from a re-analysis of the deposited data

How the results depend on the processing

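Of the 17 tested probe sets, 16 were refitted under 13 alternatives and Tet1 1419896_at under 12, since the filter at the 50th percentile left it out. In these fits 0 of them passed the adjusted threshold. The sign held in every one of them at 12 of the 17, namely each tested Dnmt1, Uhrf1, Dnmt3a and Mbd1 probe set and Dnmt3b 1449052_a_at. It turned at Mbd2 1417165_at under median centring (0.047), and when 1 array was left out at that probe set (-0.42 to 0.26), at Mbd2 1425803_a_at (-0.30 to 0.33), Mbd3 (-0.15 to 0.27), Tet1 1419896_at (-0.72 to 0.10) and Dnmt3b 1418351_a_at (-0.057 to 0.63).

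Deviations from the line means correlated between arrays of the same number (r = 0.62 over probe sets), which share only that number in the labels. With the replicate block limma called 1 of 15838 probe sets higher (0.00631%) and 0 lower, and with the block and quantile normalization 3 higher. Neither was of these genes. At an unadjusted p under 0.05 the block listed 7 of the 17 probe sets as higher (2.95% of all) and 2 as lower (5.62% of all), and with quantile normalization as well 10 in all. Without the block, the probe sets listed at that p numbered 70 higher and 192 lower, 167 and 107 under median centring, and 123 and 167 under quantile normalization. With the block they numbered 468 and 890, or 695 and 706 with quantile normalization as well. They numbered 158 and 362 with no filter, 51 and 89 when filtered at the 50th percentile, 150 and 178 with pseudocount 64 and 61 and 315 with pseudocount 1.

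The median over the 17 ranged from 0.12 to 0.66 when 1 array was left out. The median over all probe sets was -0.05 as reported, 0.012 under quantile normalization with or without the block, 0.078 under median centring and -0.12 to 0.0087 without 1 array. Leaving out 1 array makes the numbers unequal between the lines, so part of the difference between numbers enters those fits.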
